A study of Mus musculus with 44 samples.

Results

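The genes for brain-derived neurotrophic factor (Bdnf), neurotrophin-3 (Ntf3), their Trk receptors TrkB (Ntrk2) and TrkC (Ntrk3) and the p75 neurotrophin receptor (Ngfr) were examined at the level of DNA methylation. They were chosen by name, as 5 of 21887 protein-coding genes that could be given a window. Every measured cytosine from 1000 bp before to 1000 bp after the RefSeq span of each gene was kept. This gave between 478 and 681 cytosines in each of 9 deposited tables, which held between 1083654 and 1380165 cytosines in all.

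Neurotrophins are secreted growth factors that keep neurons alive and adjust the strength of their synapses. BDNF signals mainly through TrkB and neurotrophin-3 mainly through TrkC, both receptor tyrosine kinases, while p75 binds all neurotrophins and their uncleaved precursors and can signal for growth arrest or cell death. In the hippocampus and cortex BDNF and TrkB are known for activity-dependent plasticity, and Bdnf is transcribed from several alternative start sites.

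By its title, the study concerns shared changes of blood and brain in mice that model Gulf War Illness. Adult male wild-type C57BL/6J mice of 8 to 12 weeks were used. All groups, the saline groups included, had received corticosterone (CORT, the rodent stress hormone) at 200 mg/L in drinking water with 0.6% ethanol for 7 days. On day 8 they were given 4 mg/kg of diisopropyl fluorophosphate (DFP, an organophosphate cholinesterase inhibitor), and the CORT weeks were repeated up to 5 weeks. They were then given saline or 0.5 mg/kg of lipopolysaccharide (LPS, a bacterial cell wall component that provokes inflammation). Whole blood, hippocampus and frontal cortex were taken 6, 12 or 24 h after LPS, and 6 h after saline in every case. The 12 and 24 h groups therefore differed from the saline groups in time as well as in LPS, and there was no group without CORT and DFP. Of the 44 libraries 14 were from blood: 4 after saline and 4, 3 and 3 at 6, 12 and 24 h after LPS. Hippocampus had 3, 4, 3 and 4 libraries in the same order, and cortex had 4 in each group. Reduced representation bisulfite sequencing reads methylation at a CpG-rich subset of the genome, and each table gives 1 percentage per cytosine and library. Read coverage per site was not given in the files used here, so the depth behind each percentage is unknown. The labels did not say whether replicates were separate animals, and p-values measure only the spread between these libraries.

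Of the start regions of these genes 4 are shown because they hold measured sites and frame the contrast between Bdnf and its receptors. Each is 1 window of 300 bases around a RefSeq transcription start site (GRCm38.p6), written 5′ to 3′ in the direction of the gene. Capitals mark the CpGs measured in at least 1 table.
Bdnf, start site 109693027, plus strand, chr2:109692777-109693076: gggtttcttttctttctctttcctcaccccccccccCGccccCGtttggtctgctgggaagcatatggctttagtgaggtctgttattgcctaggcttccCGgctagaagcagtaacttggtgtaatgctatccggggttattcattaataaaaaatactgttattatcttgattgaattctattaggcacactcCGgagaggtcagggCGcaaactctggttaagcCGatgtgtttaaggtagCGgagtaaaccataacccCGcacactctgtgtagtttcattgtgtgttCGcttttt
Bdnf, start site 109694409, plus strand, chr2:109694159-109694458: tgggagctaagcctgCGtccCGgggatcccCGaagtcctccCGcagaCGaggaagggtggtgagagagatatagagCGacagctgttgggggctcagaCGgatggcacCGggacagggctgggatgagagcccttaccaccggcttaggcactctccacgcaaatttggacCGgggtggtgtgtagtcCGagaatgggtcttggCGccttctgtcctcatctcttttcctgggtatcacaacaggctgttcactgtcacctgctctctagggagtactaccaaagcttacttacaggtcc
Ntrk2, start site 58806569, plus strand, chr13:58806319-58806618: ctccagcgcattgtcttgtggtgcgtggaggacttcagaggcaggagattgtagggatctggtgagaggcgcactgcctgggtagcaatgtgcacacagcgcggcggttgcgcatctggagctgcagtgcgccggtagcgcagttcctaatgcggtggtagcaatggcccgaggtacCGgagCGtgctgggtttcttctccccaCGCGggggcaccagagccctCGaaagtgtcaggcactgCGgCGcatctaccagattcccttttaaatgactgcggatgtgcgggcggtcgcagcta
Ngfr, start site 95587698, minus strand, chr11:95587649-95587948: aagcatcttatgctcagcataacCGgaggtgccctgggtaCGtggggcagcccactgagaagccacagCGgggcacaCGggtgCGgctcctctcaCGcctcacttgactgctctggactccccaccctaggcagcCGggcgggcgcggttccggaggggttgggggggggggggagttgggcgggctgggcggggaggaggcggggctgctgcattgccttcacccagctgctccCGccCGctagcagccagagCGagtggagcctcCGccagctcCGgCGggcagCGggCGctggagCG
The first Bdnf window held 10 CpGs, of which 9 were measured, and the second 13, of which 11 were measured. The Ntrk2 and Ngfr windows held 23 CpGs each, with 7 and 16 measured, while the median over all 32851 RefSeq start windows was 7. The other Bdnf windows held between 2 and 12. RefSeq listed 7 start sites for Bdnf and 2 for Ntf3, and for Ntrk3 the gene is named only. The motif CGTCA, searched on both strands as the short form of the cAMP response element, was found in 20.8% of all start windows. Among the windows of these genes it occurred once, in the Bdnf window of the start site at 109692436, where no cytosine was measured.

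Saline and LPS blood differed at many genes, which bears on every blood comparison below. All other blood libraries were taken after LPS, so a trait of the 4 saline libraries cannot be told apart from the LPS difference. Over all cytosines of a table, mean methylation of the LPS blood libraries was higher by 1.92, 2.45 and 2.03 percentage points at 6, 12 and 24 h. Of a list of 22 leukocyte genes, 20 had a value in the cytosines common to all tables. At 12 of the 20, saline blood was nearer to saline brain than to LPS blood. The share of all genes nearer to brain by this measure is not given here. The 12 include genes with small gaps, such as Ikzf1, so this count alone does not set saline blood apart. Spi1, which encodes the transcription factor PU.1 of myeloid cells, had a mean of 62.8% in saline blood, 2.99% in LPS blood and 67.1% in saline brain. At Ptprc, the gene for the pan-leukocyte antigen CD45, these means were 25.7%, 0.731% and 7.93%. Other genes of the list went the other way. Hcls1 had 39.6% in saline blood, 94.5% in LPS blood and 26.3% in saline brain, and Cd37 had 17.4, 80.1 and 14.5%. These 4 genes were among those of the list with the widest gaps. Saline and LPS blood were close at others, such as Arhgap45 (79.5 and 79.3%), Coro1a (12.7 and 12.5%) and Inpp5d (72.3 and 71.1%). The median of the 20 genes was 68.0% in saline blood and 68.3, 67.3 and 68.0% in LPS blood at 6, 12 and 24 h. In the blood comparisons 11, 12 and 11 of 21 measured leukocyte genes fell at 6, 12 and 24 h and 4, 5 and 4 rose, and of 10 neuronal genes 5, 8 and 7 rose and none fell. Over all genes of the same comparisons 8.05, 6.45 and 7.32% fell and 34.4, 37.1 and 32.2% rose. No gene of either list was called in hippocampus or cortex. All 3 blood comparisons use the same 4 saline libraries, so none of them can be made without these libraries, and their part in the results was not tested. LPS blood is therefore also set against LPS brain below. In whole blood a change within cells and a change in the mix of cell types cannot be told apart.

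Bdnf methylation rose in blood after LPS at all 3 times and did not pass the test in brain. At 6 h the mean over 166 cytosines of Bdnf (chr2:109674700-109727043) was 3.32, 4.35, 4.28 and 3.81% in the saline libraries and 7.12, 5.99, 7.17 and 6.43% in the LPS libraries. All LPS libraries lay above all saline libraries. The rise from 3.94% ± 0.477 (SD, n = 4) to 6.68% ± 0.568 (n = 4) had an adjusted p of 0.000297 (limma, two-sided, Benjamini-Hochberg over all genes of the table). At 12 h the mean went from 3.75 to 6.96% (n = 4 and 3, adjusted p = 0.00105 by limma) and at 24 h from 3.91 to 6.92% (n = 4 and 3, adjusted p = 0.000179 by limma), again with no overlap between the groups. In blood 41.9, 47.6 and 44.8% of all genes had groups that did not overlap at 6, 12 and 24 h. With the mean of all its cytosines subtracted from each library (centring), the rise of Bdnf shrank to 0.822, 0.760 and 0.979 points, and it kept its call at 6 h (adjusted p = 0.0315 by limma) but not at 12 h (0.0841) or 24 h (0.129). Centring takes the same number of points from every gene, including genes such as Bdnf that lie close to 0%.

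Ntf3 did not pass the test in any tissue when its whole window was averaged. At 6 h the mean over 98 cytosines of Ntf3 (chr6:126101412-126166772) was 30.1, 32.2, 32.1 and 32.7% in saline blood and 32.3, 32.6, 33.6 and 32.0% in LPS blood, and the groups overlapped. The means were 31.8% ± 1.18 and 32.6% ± 0.711 (adjusted p = 0.377 by limma). At 12 h they were 36.3 and 38.9% (adjusted p = 0.0901 by limma) and at 24 h 32.2 and 33.4% (0.387). The 12 h difference of 2.57 points passed without LPS 12 h replicate 1 (3.52 points, adjusted p = 0.0246 by limma) and with the replicate number as a block (2.85 points, 0.0340). This average hides tiles that moved in opposite directions, described below.

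Ntrk2, the TrkB gene, had the largest differences in blood of the 5 genes at all 3 times. At 6 h the mean over 152 cytosines of Ntrk2 (chr13:58806472-59133970) was 51.6, 52.9, 53.7 and 52.6% in saline blood and 62.6, 58.0, 61.8 and 61.8% in LPS blood. The lowest LPS library was above the highest saline library. The mean rose from 52.7% ± 0.833 to 61.1% ± 2.10 at 6 h (n = 4 and 4, adjusted p = 0.000327 by limma). It rose from 55.3 to 66.6% at 12 h (adjusted p = 2.59e-05 by limma) and from 51.5 to 61.1% at 24 h (0.000134). Saline means differ between times because each table holds its own set of cytosines, while the saline values at shared cytosines were identical. After centring on library means Ntrk2 still rose by 6.46, 8.91 and 7.58 points and was called at each time. The window of Ntrk2 also overlaps the long noncoding gene Gm53063, and the shared cytosines cannot be assigned to one of them.

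Ntrk3, the TrkC gene, was not called in any tissue. In blood at 6 h its 47 cytosines (chr7:78179986-78581034) averaged 18.6, 18.3, 18.7 and 18.2% after saline and 17.8, 18.0, 19.5 and 18.4% after LPS, with overlapping groups. The means were 18.5% ± 0.215 and 18.4% ± 0.746 (adjusted p = 0.956 by limma). At 12 h they were 16.8 and 17.5% (adjusted p = 0.246 by limma) and at 24 h 18.5 and 19.3% (0.0798), where the groups did not overlap. The sign at 12 and 24 h depends on the scaling, since centring on library means gave -1.96, -1.71 and -1.17 points at 6, 12 and 24 h, each called (adjusted p = 0.0034, 0.00419 and 0.0485 by limma). This window overlaps the noncoding genes Gm39038 and E430016F16Rik.

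Ngfr, the p75 gene, rose in blood at each time. At 6 h its 97 cytosines (chr11:95568818-95587698) averaged 6.18, 6.66, 6.09 and 6.06% in saline blood and 9.48, 8.35, 10.3 and 8.90% in LPS blood, with no overlap. The rise was from 6.25% ± 0.279 to 9.25% ± 0.819 at 6 h (adjusted p = 0.00041 by limma), from 5.33 to 7.84% at 12 h (0.0104) and from 5.27 to 8.55% at 24 h (0.00778). The 24 h LPS libraries were spread, at 8.52, 10.2 and 6.89%, and still lay above every saline library. After centring, the rise of Ngfr was 1.08 points at 6 h (adjusted p = 0.00608 by limma) and 1.25 at 24 h (0.0325), and at 12 h it was 0.0672 and lost its call (0.886).

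In blood 3 of the 5 genes were thus called at each time, all higher. Over all genes tested 42.5% (of 16634) were called at 6 h, 43.5% at 12 h and 39.5% at 24 h, with 34.4, 37.1 and 32.2% called higher and 8.05, 6.45 and 7.32% called lower. Whether 3 of 5 exceeds that background was not tested.

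**Figure D1:**
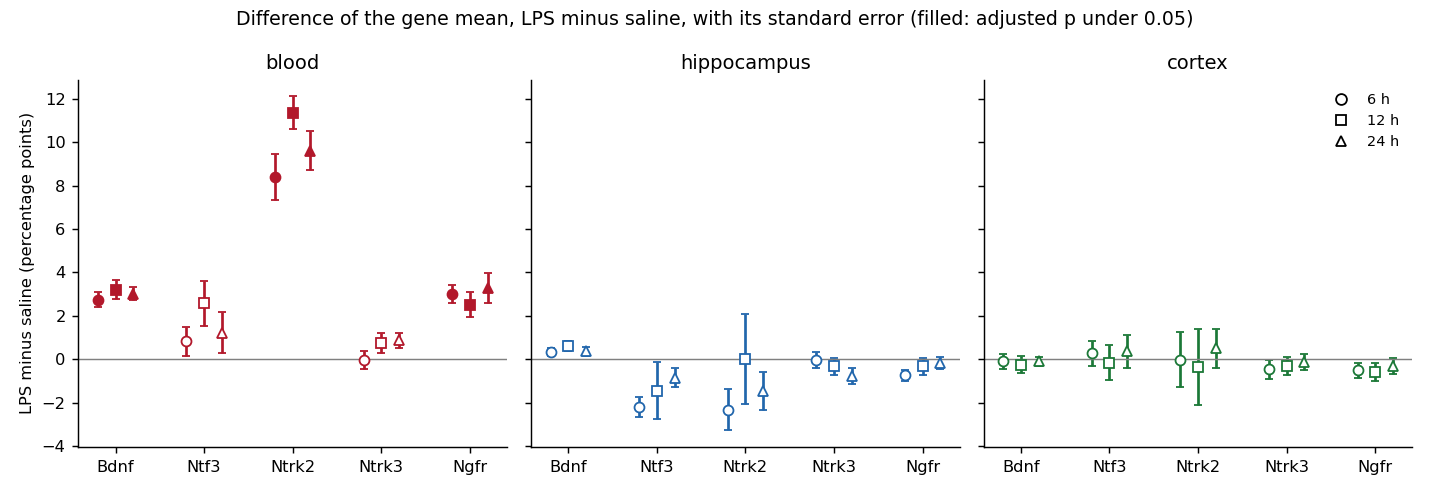
Difference in mean methylation, LPS minus saline, in percentage points (vertical axis) for each gene (horizontal axis) in blood, hippocampus and cortex at 6 h (circles), 12 h (squares) and 24 h (triangles), with bars of 1 standard error. Filled symbols passed an adjusted p of 0.05: Bdnf, Ntrk2 and Ngfr in blood, with Ntrk2 highest at 8.38 to 11.4 points, and none in brain.

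In hippocampus and cortex no gene of the 5 was called at any time by limma. At an unadjusted p under 0.05, 3 of the 5 passed in hippocampus at 6 h (Ntf3, Ntrk2 and Ngfr), 1 at 12 h (Bdnf) and 0 at 24 h, and 0 passed in cortex at 6, 12 and 24 h. Over all genes the share at that unadjusted p was 22.8, 3.91 and 8.11% in hippocampus and 1.4999, 1.48 and 2.14% in cortex. The background of genes called at an adjusted p under 0.05 was 0.00598% in hippocampus at 6 h, which is 1 gene, and 0% in the other 5 brain comparisons. Ntf3 came closest. In hippocampus at 6 h it was 24.8, 23.9 and 23.3% after saline and 22.0, 21.8, 21.9 and 21.4% after LPS. The LPS libraries all lay below the saline libraries, and the difference of -2.20 points had an adjusted p of 0.0645 (limma). It was -1.04 after centring, and passed when genes with means outside 5 to 95% were left out of the fit (adjusted p = 0.0423 by limma). Ngfr showed the same lack of overlap there, from 4.39 to 3.65% (adjusted p = 0.143 by limma), but its sign turned on centring (0.423 points). In that comparison 22.7% of all genes had groups that did not overlap, and the library means themselves were lower after LPS by 1.16 points.

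Bdnf in hippocampus depended on 1 library. At 12 h it averaged 1.48, 1.61 and 1.47% after saline and 2.27, 1.70 and 2.42% after LPS, a difference of 0.612 points (adjusted p = 0.985 by limma). The groups did not overlap, as for 8.03% of all genes in that comparison. Without LPS 12 h replicate 2, whose mean over all cytosines was the lowest of that table at 28.6%, the difference was 0.827 points and passed (adjusted p = 0.0284 by limma). Without that library 2 single cytosines of these genes were also called, in the separate fit of cytosines. The share of all genes or cytosines called without it is not given here. At 6 h, centring also put Bdnf past the threshold (1.49 points, adjusted p = 0.0305 by limma), along with Ntrk3 (1.13 points, 0.0479). Their uncentred differences were 0.328 and -0.0343. Library means there were lower after LPS by 1.16 points, and centring adds that amount to the difference of every gene. The share of all genes called after centring is not given here, for this or any other comparison.

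**Figure D2:**
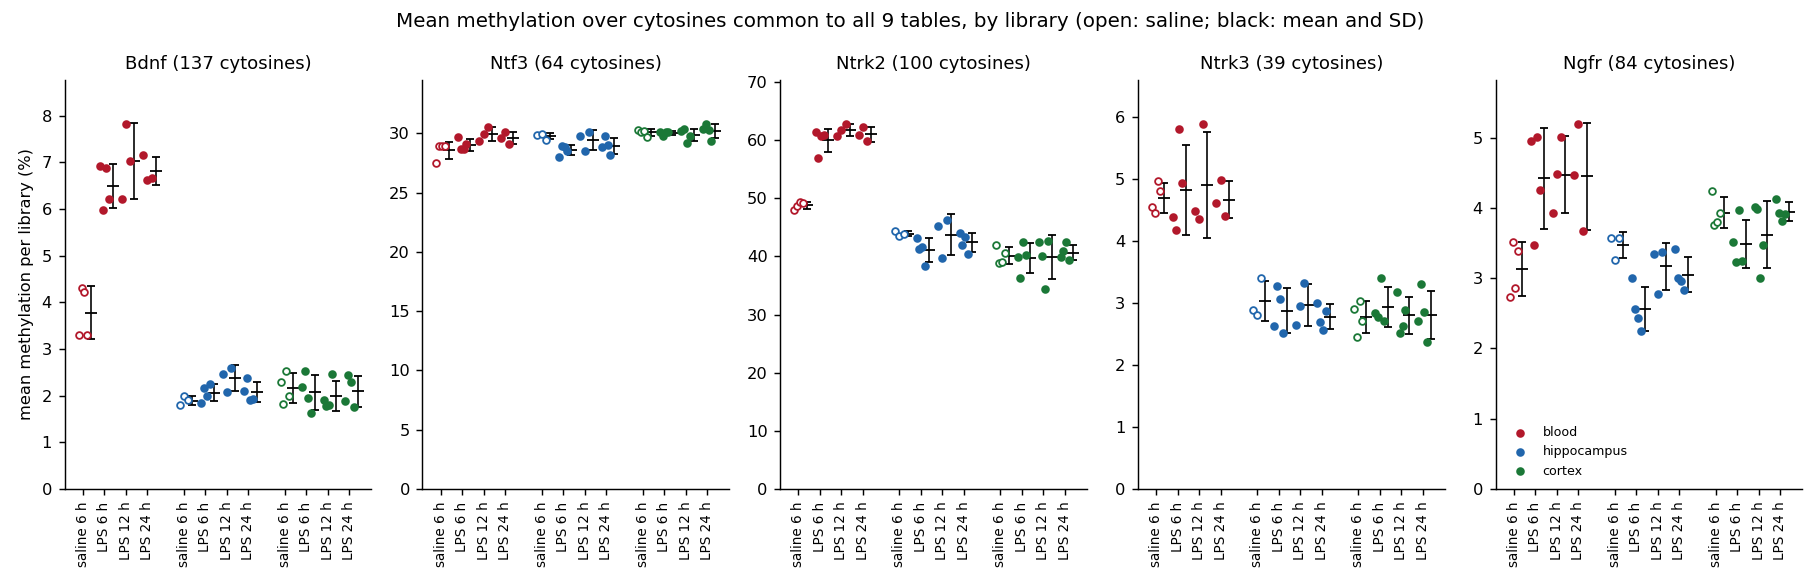
Mean methylation in percent (vertical axis, starting at 0) of each gene in each of the 44 libraries, over the cytosines common to all 9 tables, by tissue and treatment (horizontal axis), with the group mean and SD in black. Saline blood (open red) lies below LPS blood for Bdnf and Ntrk2 and overlaps with LPS 6 h blood for Ngfr. In hippocampus the LPS 6 h libraries of Ntf3, Ntrk2 and Ngfr lie below, and the LPS 12 h libraries of Bdnf above, the saline libraries. Over each table's own cytosines Ntrk2 overlapped in hippocampus at 6 h. There 22.7% of all genes did not overlap at 6 h and 8.03% at 12 h, and this share is not given for the common cytosines.

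In blood most of the rise in points lay near start sites in Bdnf and in the gene interior in Ntrk2 and Ngfr. Most measured Bdnf cytosines lie close to a start site: at 6 h 160 of 166 were within 1000 bp of a start, and these averaged 2.98% ± 0.389 after saline and 5.87% ± 0.550 after LPS. The LPS libraries ranged from 5.15 to 6.30% and the saline libraries from 2.46 to 3.29%. The same region went from 2.54 to 5.94% at 12 h and from 2.99 to 6.34% at 24 h. At 6 h hippocampus stood at 0.624 and 1.03% and cortex at 1.68 and 1.56%. The hippocampus LPS libraries, all very low, lay above the saline libraries at 6 h (0.791 to 1.46 against 0.538 to 0.743%). So did those at 12 h (0.820 to 1.62 against 0.559 to 0.772%), while the groups overlapped at 24 h and in cortex. The share of all start regions without overlap is not given here, and this region was not tested. In blood at 6 h the other 6 Bdnf cytosines averaged 29.6% after saline and 28.3% after LPS, with overlapping groups. In the first Bdnf window printed above the 8 measured blood cytosines averaged 5.14% after saline and 10.8% after LPS at 6 h, 6.85 and 13.8% at 12 h (6 cytosines) and 5.14 and 13.0% at 24 h. Brain means of that window lay between 1.36 and 2.71%. The second Bdnf window was lower, at 1.40% in saline blood and 3.10, 2.61 and 1.87% in LPS blood.

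For Ntrk2 and Ngfr the start regions had means under 3% in blood, and most of the rise in points lay in the gene interior. Within 1000 bp of its start Ngfr averaged 1.23% in saline and 0.912% in LPS blood at 6 h, over 37 cytosines, while its other 60 cytosines went from 9.34% ± 0.636 to 14.4% ± 1.23. Ntrk2 averaged 1.01 and 2.38% over 18 cytosines at its start at 6 h, with overlapping groups, and 59.6% ± 0.922 and 69.0% ± 2.26 over the other 134. At 24 h the Ntrk2 start had 0.818 to 1.33% in the saline libraries and 1.93 to 3.68% in the LPS libraries, with no overlap, and at 12 h its means were 0.765 and 1.94% over 9 cytosines, with overlap. In the window printed above, no Ntrk2 group mean exceeded 1.84%, and Ngfr had 1.06 to 1.13% in blood and 2.78 to 4.56% in brain. Among single cytosines, 156 of 166 Bdnf sites were under 10% in saline blood and 141 in LPS blood at 6 h. In Ntrk2 48 of 152 sites lay between 10 and 80% in saline blood and 24 in LPS blood, and the sites over 80% went from 60 to 85. Sites of intermediate methylation in Ntrk2 were thus fewer, and nearly full ones more, after LPS.

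At the level of 1 kb tiles (tiles with at least 3 cytosines and a mean of 5 to 95%, called at an adjusted p under 0.05 and at least 5 points), 14 of 30, 13 of 26 and 13 of 29 tiles of the 5 genes were called in blood at 6, 12 and 24 h. Of these, 12 were higher at each time, and 2, 1 and 1 were lower. Over all tiles 41.4, 44.5 and 42.5% were called, with 29.6, 34.6 and 31.1% higher and 11.8, 9.95 and 11.3% lower, so the members' share was close to the background. None of their tested tiles was called in brain, where the background was 0% in all 6 comparisons. In hippocampus 5, 1 and 1 tiles and in cortex 1, 0 and 0 had an unadjusted p under 0.05 (limma). So did 18.0, 3.65 and 9.196% of all hippocampus tiles and 2.98, 2.98 and 3.25% of all cortex tiles. Tiles outside the limit of 5 to 95% were not tested. Bdnf had 1 tested tile in each brain comparison except hippocampus at 6 h, where it had none, and Ntrk3 had none in brain.

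Of the tiles named here, a pair inside Ntrk2 (58964000 and 58980000) moved most in blood at each time. In the first, the tile at chr13:58964000-58964999, which lies 157931 bp from the start site, 4 cytosines averaged 37.7, 29.0, 33.7 and 32.0% in saline blood and 93.2, 78.7, 89.0 and 90.1% in LPS blood at 6 h. At 12 h the LPS libraries had 86.4, 92.7 and 89.98% and at 24 h 90.6, 91.0 and 86.8%, so no LPS library came near a saline library. The differences were 54.6, 56.6 and 56.4 points (adjusted p = 6.58e-08, 8.82e-08 and 1.01e-07 by limma). The tile at chr13:58980000-58980999 went from 40.3% ± 6.12 to 90.8% ± 2.98 at 6 h, 88.1% at 12 h and 90.3% at 24 h, and the tile at chr13:59077000-59077999 from 54.9% ± 4.60 to 87.4% ± 6.77, 91.6% and 89.6%. These 3 tiles were called at each time.

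Brain levels of these Ntrk2 tiles differed between hippocampus and cortex. Over the common cytosines, 34 tiles of the 5 genes could be placed. In 4 of them, all in Ntrk2, saline and LPS blood were at least 10 points apart. The share of all tiles that far apart is not given here. The Ntf3 and Ngfr tiles named below were not among the 34. One of them, Ntf3 126105000, had saline blood above LPS blood (71.6 against 47.4% at 6 h). At 58980000 saline blood had 38.1% ± 5.68, below saline hippocampus at 85.4% ± 2.83 and saline cortex at 56.6% ± 10.6. At 59077000 it had 54.9% ± 4.60, below hippocampus at 82.4% ± 3.53 and cortex at 76.5% ± 4.67. At 58964000 it had 33.1% ± 3.62, between hippocampus at 28.9% ± 5.10 and cortex at 57.2% ± 4.54, and the libraries of blood and hippocampus overlapped. In the fourth tile, chr13:58810000-58810999, saline blood at 66.9% ± 2.65 lay above both brain tissues, at 14.96 and 14.8%, and below LPS blood at 88.0, 89.4 and 89.3%. Saline blood was thus below LPS blood in these 4 Ntrk2 tiles, while its place against brain differed from tile to tile.

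**Figure D3:**
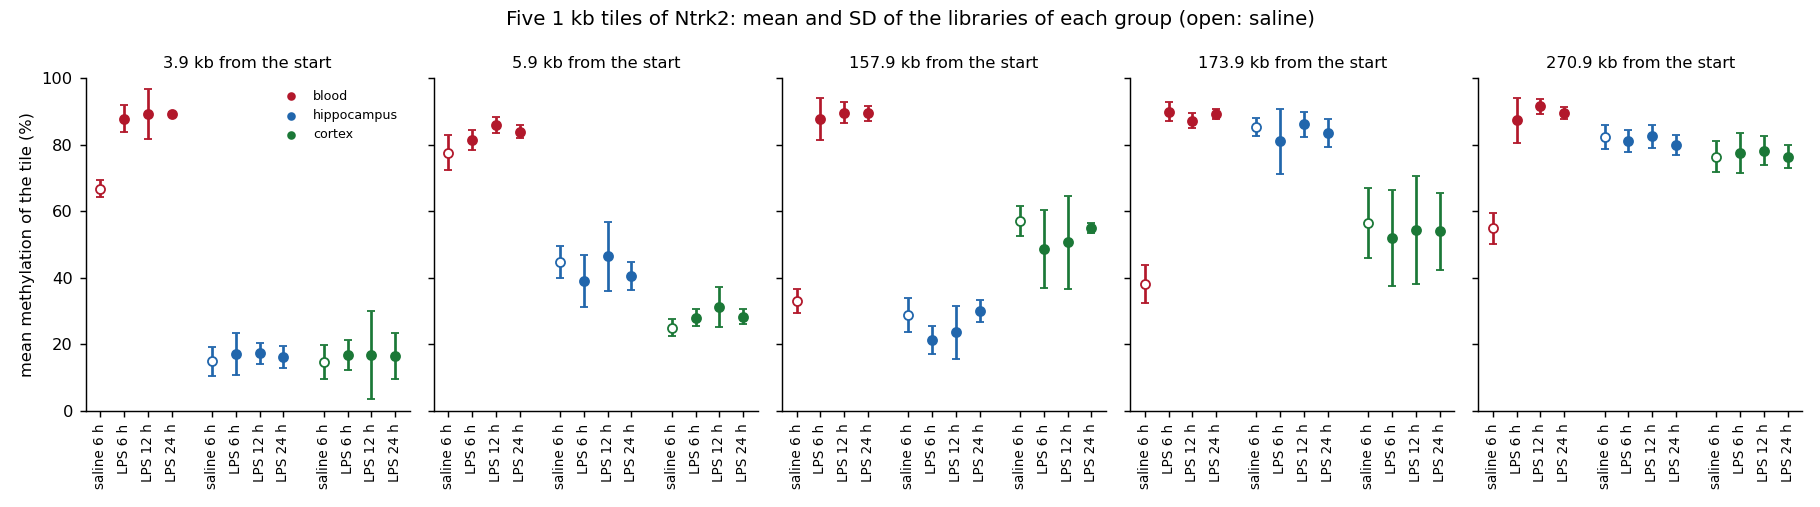
Mean methylation in percent (vertical axis) of 5 Ntrk2 tiles of 1 kb in each group (horizontal axis), panels ordered by distance from the start site, with bars of 1 SD over libraries and open symbols for saline. Saline blood is the lowest group in the tiles 173931 and 270931 bp from the start and lies near the hippocampus groups at 157931 bp, while the means of LPS blood lie between 87.3 and 91.6% in those 3 tiles.

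Ntf3 carried tiles that moved in opposite directions side by side. The tile at chr6:126105000-126105999 fell from 70.1, 75.5, 70.5 and 70.4% in saline blood to 32.5, 62.9, 60.9 and 33.3% at 6 h. The LPS libraries were split into a lower and a higher pair, all below saline, and the fall of 24.2 points was called (adjusted p = 0.00604 by limma). At 12 h the tile averaged 46.6% ± 12.2 and at 24 h 36.1% ± 7.63, and both falls were called. The next tile, chr6:126106000-126106999, rose from 37.4% ± 5.74 to 67.2% ± 6.56 at 6 h, 72.2% at 12 h and 68.3% at 24 h, and the tile at chr6:126117000-126117999 from 52.6% ± 4.04 to 83.8% ± 6.72, 86.1% and 85.2%. All 3 lie in the gene interior, with their middles at least 47460 bp from the nearest listed start site.

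Ngfr rose in tiles of the gene interior. The tile at chr11:95576000-95576999, 11198 bp from the start site, was 35.1, 38.9, 36.3 and 37.6% in saline blood and 50.5, 59.6, 61.0 and 50.01% in LPS blood at 6 h, with no overlap (adjusted p = 0.000378 by limma). In cortex the same tile was between 82.6 and 88.4% after saline and between 78.2 and 88.6% after LPS at 6 h. The tile at chr11:95571000-95571999, 16198 bp from the start site and nearer to the far end of the gene, rose from 32.0 to 51.4% at 6 h and from 29.6 to 48.4% at 24 h.

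The Bdnf tile at chr2:109677000-109677999 was low but held 45 cytosines, and its middle lies 468 bp from a start site. Its values were 1.98, 2.34, 3.12 and 2.04% in saline blood and 8.79, 7.15, 7.88 and 7.68% in LPS blood at 6 h. The rise of 5.51 points was called (adjusted p = 0.000919 by limma), and after centring it was 3.59 points, under the minimum of 5. With means of 2.37% in saline and 7.87% in LPS blood, the tile met the 5% limit at 6 h only through the LPS libraries. At that saline level only a rise could be called, so the call adds no separate support. At 12 and 24 h the mean of the tile over all libraries was under the 5% limit, so it was not tested. Its level had not dropped. Over 39 cytosines common to all tables it had 2.28% in saline blood and 7.33, 7.90 and 7.79% in LPS blood at 6, 12 and 24 h. Hippocampus libraries of this tile had 0.299 to 0.917% and cortex libraries 0.463 to 1.05% at 6 h. In Ntrk3 the only called tile was chr7:78302000-78302999 at 24 h, from 82.2 to 88.9% (6.66 points, adjusted p = 0.0214 by limma). That call was lost without saline replicate 4 (6.08 points, adjusted p = 0.0528), without LPS 24 h replicate 3 (5.99 points, 0.0601), under the replicate block (6.08 points, 0.0911) and after centring (4.63 points, 0.0822).

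Single cytosines gave the same picture. With a mean of 5 to 95%, an adjusted p under 0.05 and at least 10 points required, 67 of 213, 61 of 178 and 75 of 210 cytosines of the 5 genes were called in blood at 6, 12 and 24 h. The background was 28.2, 30.2 and 29.1% of all cytosines tested. Ntrk2 held 40, 34 and 39 of them, Ntf3 11, 14 and 18, Bdnf 8, 7 and 11, Ngfr 6, 5 and 7, and Ntrk3 2, 1 and 0. No cytosine of these genes was called in brain by limma (background 0%), where 15, 7 and 8 in hippocampus and 9, 8 and 15 in cortex had an unadjusted p under 0.05 at 6, 12 and 24 h. Over all cytosines that share was 9.84, 5.44 and 7.39% in hippocampus and 3.07, 3.16 and 3.46% in cortex. The limit of 5 to 95% left 38, 34 and 36 Bdnf cytosines to test in blood at 6, 12 and 24 h. In hippocampus it left 5, 7 and 5 and in cortex 7, 8 and 6. The Bdnf counts of blood and brain therefore rest on unlike numbers of tested sites.

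Among the Bdnf cytosines, 109677560 rose from 2.05% to 24.0% at 6 h (libraries 0 to 4.35% against 19.4 to 34.6%, adjusted p = 0.000417 by limma) and to 21.5% at 12 h. The cytosine 109693021, 6 bp before the start site of the first window printed above, had 2.08 to 27.9% in saline blood and 31.0 to 45.5% in LPS blood at 24 h. Its rise of 22.7 points was called (adjusted p = 0.011 by limma) but not without LPS 24 h replicate 1 (17.9 points, 0.0514). Bdnf 109708058, which lies 1325 bp from a start site, was among the few that fell, from 85.4 to 61.7% at 24 h (adjusted p = 0.0138 by limma), and lost its call without LPS 24 h replicate 3 (-16.0 points, 0.0598).

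The largest single changes were in Ntrk2, where 58964683 went from 29.9% ± 7.14 to 89.1% ± 3.93 at 6 h and 93.4% at 12 h, and 58984034 from 28.8 to 90.4% at 24 h. In Ntf3, 126117483 rose from 29.3% to 75.8, 82.8 and 78.3% at 6, 12 and 24 h, and 126105238 fell from 72.1 to 24.1% at 24 h. In Ngfr, 95576939 rose from 53.6 to 89.4% at 6 h and 95.8% at 12 h. In Ntrk3, 78577404 fell from 41.8 to 25.4% at 6 h (adjusted p = 0.0276 by limma) and 20.5% at 12 h. The 6 h call of 78577404 was lost on leaving out any of 4 libraries (saline replicates 2 and 3, LPS 6 h replicates 1 and 2), with differences of -16.7 to -12.9 points. The other called Ntrk3 site, 78568960 (14.3 to 27.4% at 6 h), lost its call for 6 of 8 libraries left out, namely every saline library and LPS 6 h replicates 2 and 3, with 9.71 to 13.8 points. Where both strands of a CpG were measured, their difference had a median of 0 to 5.36 points per gene and table.

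**Figure D4:**
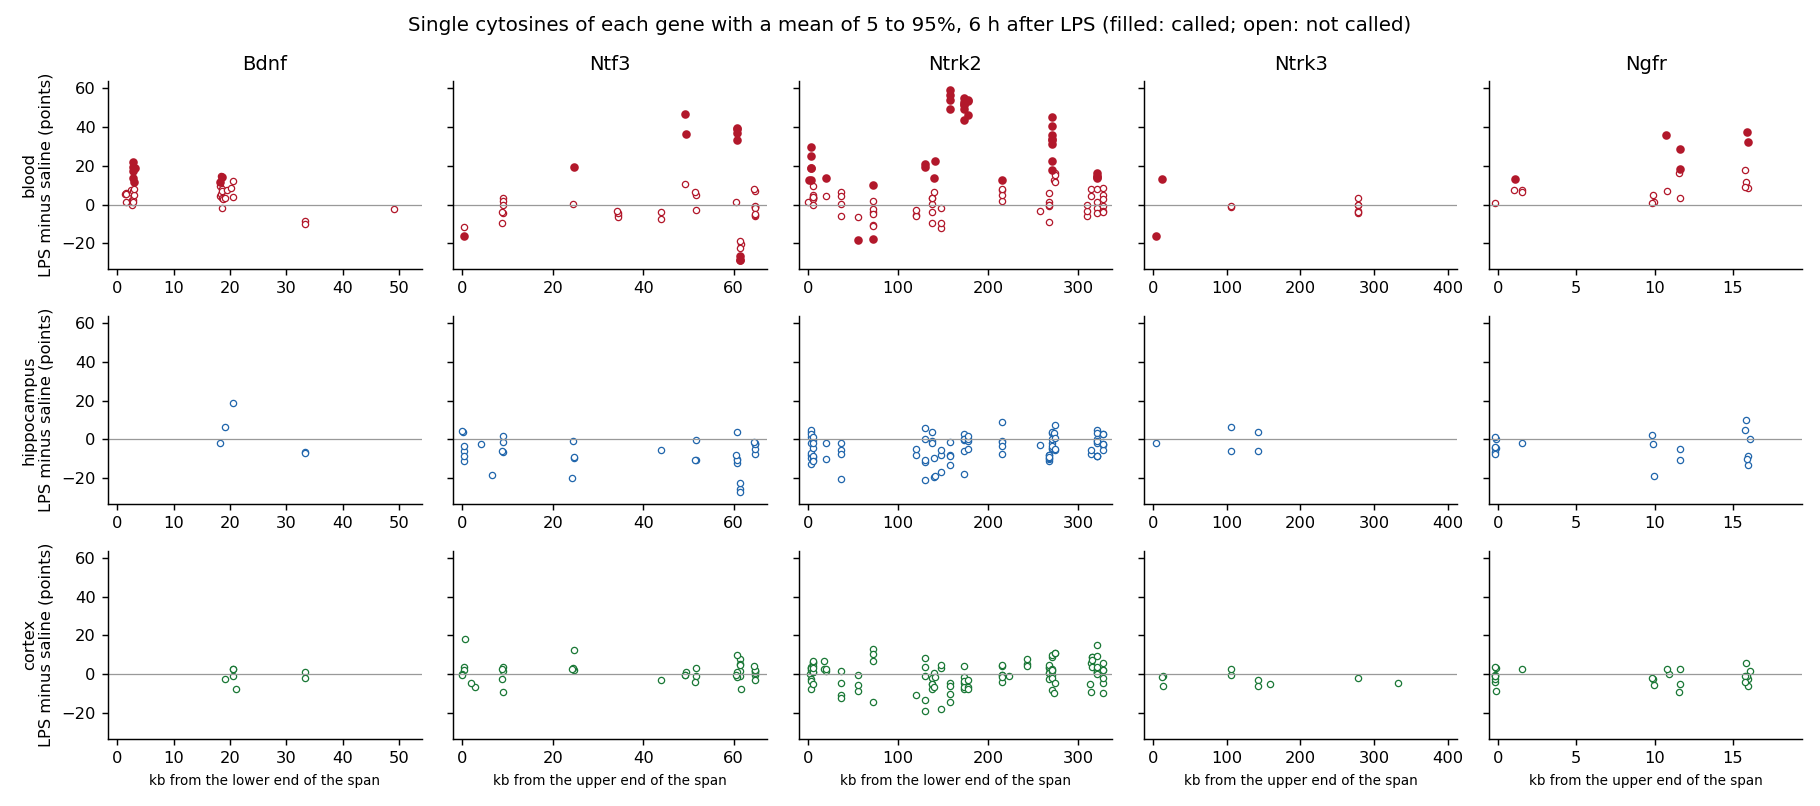
LPS minus saline difference at 6 h in percentage points (vertical axis) for each cytosine with a mean of 5 to 95%, by distance in kb from the transcription start end of each gene's span (horizontal axis), in blood, hippocampus and cortex. Filled points are called cytosines, 67 in blood and none in brain, with Ntrk2 reaching 59.1 points and Ntf3 showing both signs.

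To compare tissues, the 12 groups were fitted together over the 913806 cytosines common to all tables, which gave 15749 genes. After saline, blood was above hippocampus for Bdnf (3.78% ± 0.566 against 1.89% ± 0.0970), Ntrk2 (48.8% ± 0.629 against 43.9% ± 0.438) and Ntrk3 (4.70% ± 0.239 against 3.03% ± 0.321). It was below it for Ntf3 (28.6% ± 0.721 against 29.8% ± 0.264), and Ngfr did not pass (3.13% ± 0.382 against 3.47% ± 0.183, adjusted p = 0.433 by limma). These 4 calls stand against a background of 36.7%. Against cortex all 5 passed (background 37.8%), with differences of 1.62 points for Bdnf, -1.496 for Ntf3, 8.65 for Ntrk2, 1.92 for Ntrk3 and -0.808 for Ngfr.

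Some of these tissue calls rested on single libraries. Ntf3 against hippocampus (adjusted p = 0.0377 by limma) was lost without blood saline replicate 1 or hippocampus saline replicates 1 or 2, with differences of -1.13 to -0.815. Ngfr against cortex (adjusted p = 0.0291 by limma) was lost without blood saline replicates 1 or 3 or cortex saline replicates 1 or 4, with differences of -0.808 to -0.678. After centring, Bdnf (1.09 points, adjusted p = 0.0735) and Ntrk3 (0.877 points, 0.159) no longer passed between blood and hippocampus.

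Between saline hippocampus and cortex the mean of none of the 5 genes passed by limma (background 5.3%; only Ntrk2 had an unadjusted p under 0.05, as did 16.0% of all genes), yet 4 of 17 tiles did, all in Ntrk2 (background 12.4%). Hippocampus was higher by 19.6 points at 58812000, by 28.8 at 58980000 and by 9.29 at 59127000, and lower by 28.3 at 58964000. Single libraries at 58964000 had 31.4, 23.1 and 32.3% in saline hippocampus and 62.8, 56.8, 51.7 and 57.6% in saline cortex. The sign of the difference between hippocampus and cortex thus varied within 1 gene. After centring, the gene mean of Ntrk2 also passed (4.15 points, adjusted p = 0.0228 by limma).

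In the same fit LPS blood was set against LPS brain of the same hour, so saline blood did not enter these differences. The saline blood libraries stayed in the fit, whose shared estimate of the spread lies behind every adjusted p given here. Bdnf, Ntrk2 and Ntrk3 were higher in blood in all 6 of these comparisons. Bdnf was higher by 4.42 to 5.04 points, Ntrk2 by 18.0 to 21.9 and Ntrk3 by 1.86 to 2.11. At 6, 12 and 24 h Bdnf stood at 6.50% ± 0.473, 7.03% ± 0.810 and 6.81% ± 0.293 in blood, and the highest LPS library of hippocampus or cortex had 2.59%. The background of calls was 54.6, 49.1 and 50.3% against hippocampus and 51.6, 52.3 and 47.5% against cortex. Ngfr was higher in 5 of the 6, by 0.857 to 1.86 points, and was not called against cortex at 24 h (0.501 points, adjusted p = 0.213 by limma). Ntf3 was called only against cortex at 6 h (-1.003 points, adjusted p = 0.0423 by limma).

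These values depended on scaling. Bdnf and Ntrk2 kept their sign in all 6 comparisons after centring, with Bdnf at 0.691 to 2.59 points, while Ntf3, Ntrk3 and Ngfr were lower in blood in all 6. Bdnf lost its call against hippocampus at 6 h after centring (0.691 points, adjusted p = 0.145 by limma). The Ngfr calls against cortex were also lost without LPS 6 h blood replicate 3 at 6 h (0.738 points, adjusted p = 0.0505) and without LPS 12 h blood replicates 2 or 3 or cortex replicate 3 at 12 h (0.588 to 0.852 points), and a call was gained at 24 h without blood replicate 3 (0.888 points, 0.0317). The Ntf3 call was lost for 6 of 8 libraries left out (blood replicates 2, 3 and 4 and cortex replicates 1, 3 and 4, -1.04 to -0.878 points).

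The interaction asks whether the LPS difference itself differed between tissues, in the same fit. For Bdnf it was larger in blood than in hippocampus by 2.55, 2.76 and 2.85 points at 6, 12 and 24 h, and larger than in cortex by 2.80, 3.42 and 3.11. For Ntrk2 the values were 13.9, 13.1 and 13.6 points against hippocampus and 11.6, 13.2 and 11.7 against cortex. For Ngfr they were 2.20, 1.65 and 1.74 against hippocampus and 1.74, 1.66 and 1.31 against cortex. All of these passed (highest adjusted p = 0.0216 by limma, for Ngfr at 24 h against cortex), against backgrounds of 36.4, 31.6 and 31.2% for hippocampus and 29.1, 33.3 and 27.2% for cortex. Ntrk3 passed in none of the 6, though after centring it passed in all 6 with a negative sign (-2.67 to -1.83 points). Ntf3 passed against hippocampus at 6 h (1.63 points) and 24 h (1.86) and against cortex at 12 h (1.57).

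The Ntf3 and Ngfr calls at the edge were fragile. Ntf3 lost its call for 7 of 15 libraries left out at 6 h (1.27 to 1.60 points), 4 of 14 at 24 h (1.496 to 1.75) and 8 of 15 at 12 h (1.21 to 1.56), blood saline replicate 1 among them each time. Against hippocampus at 12 h, where Ntf3 had 1.65 points and an adjusted p of 0.0532 (limma), it gained a call for 6 of 13. Ngfr at 24 h against cortex was lost without blood saline replicate 1 (1.18 points, adjusted p = 0.0527) or LPS 24 h blood replicate 2 (0.932 points, 0.142). After centring only Ntrk2 kept both its sign and its call in all 6, Ngfr turned negative in all 6, and Bdnf passed in none and was -0.404 against hippocampus at 6 h.

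The LPS difference did not pass between hippocampus and cortex for any of the 5 genes (background 0% at each time, and 0 of 5 at an unadjusted p under 0.05 at 6, 12 and 24 h). Nor did any of the 5 pass between LPS times within a tissue. In those 9 comparisons 0 of 5 had an unadjusted p under 0.05, the lowest adjusted p was 0.715 (limma), and the background was 0 to 0.0254%.

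The other genes of neurotrophin signalling were taken from a list of 62, of which 61 were measured. In blood 20, 25 and 18 of the 61 rose at 6, 12 and 24 h, while 6, 3 and 4 fell. Over all genes 34.4, 37.1 and 32.2% rose and 8.05, 6.45 and 7.32% fell, which is the background of these counts and of those of the groups within the list. The median difference of the list was 0.686, 0.785 and 0.359 points, beside 0.556, 0.826 and 0.608 over all genes. Among 10 ligands, receptors and co-receptors 4, 5 and 4 rose and 2, 0 and 1 fell. Sorcs2, which encodes a p75 co-receptor for neurotrophin precursors, rose by 7.81, 9.84 and 8.28 points. Mmp9, a protease that can cleave proBDNF, fell by 7.61, 13.2 and 7.23 points. Both genes kept sign and call after centring.

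Among 6 processing genes 2 rose at each time and 2, 2 and 1 fell, and among 29 adaptors and signalling genes 9, 10 and 8 rose and 2, 1 and 2 fell. Of 9 measured genes of p75 signalling 2, 2 and 1 rose, and of 7 activity-dependent targets 3, 6 and 3 rose, with none falling in either group. No gene of the list was called in brain by limma. The neurotrophin-4 gene Ntf5 was singled out after its values were seen. Ntf5 fell by 3.02 points at 6 h and 3.60 at 24 h, and was not called at 12 h (-1.84 points, adjusted p = 0.179 by limma), where it passed without LPS 12 h replicate 3 (-2.82 points, 0.0436) and after centring (-4.29 points, 0.000773). Centring gave -4.94 and -5.63 points for Ntf5 at 6 and 24 h. With the strands of each CpG averaged, the 6 h call of Ntf5 was lost (-1.20 points, 0.12).

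Genes whose 12 group means ran most like those of each member are given as a description over 13658 genes, in which the tissue contrast and the saline blood libraries are shared by all points. For Bdnf these were Tbc1d32, Hoxa4 and 2700081O15Rik (Pearson r = 0.998 each). For Ntf3 they were Plekha6 (0.960), Tbc1d1 (0.958) and Glra1 (0.955), for Ntrk2 Zfp251 (0.998) and Ajap1 (0.997), for Ntrk3 Pnma1 (0.996), Ext1 (0.995) and Kcnc1 (0.994), and for Ngfr Pebp4 (0.982), Frmd4b (0.981) and Gm11992 (0.978).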

How the data were processed

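Reduced representation bisulfite sequencing (Ovation RRBS Methyl-Seq, 100 ng of DNA) gave the methylation of 44 libraries. The authors deposited 9 tables of percent methylation per cytosine (0 to 100), 1 for each tissue and time, each with its LPS libraries and the saline libraries of that tissue. Per the submitters' processing notes, Trim Galore, FastQC, Bowtie2, Bismark, SAMtools and methylKit were used with the build GRCm38 (mm10), with versions and a coverage minimum not given in the sources used here. In the deposited tables the percent values carry no read counts, so no interval was computed. Percent values were averaged per library over gene windows (at least 3 cytosines) and 1 kb tiles, with RefSeq spans and start windows of GRCm38.p6. Tests used limma 3.58.1 in R 4.3.3 (moderated, trend, two-sided) with Benjamini-Hochberg adjustment over all genes, tiles or cytosines of a table. Tiles and cytosines needed a mean of 5 to 95% and a difference of at least 5 and 10 points. Tissues were compared in 1 fit of 12 groups. Tables were read with arrow 21.0.0, and with pyarrow 21.0.0, pandas 2.3.3 and numpy 2.4.6 in Python 3.11.15. Figures were drawn with matplotlib 3.10.9. The scripts were tested on simulated data. Alternatives were centring, limits on levels, cytosines in all 3 tables of a tissue, an arcsine square root scale, averaged strands, a minimum of 10 cytosines, a replicate block and leaving out each library. At most 3 called tiles and 2 called cytosines were named for each gene and comparison, by size of difference. Some genes of the lists and of the likeness ranking are not reported here. The members and lists were chosen with earlier results of these data known.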

Additional observations from a re-analysis of the deposited data

Results flagged for a closer look

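Some single libraries lay far from the rest of their group in the gene means over the cytosines common to all tables. The lowest Ntf3 library of saline blood had 27.5%, the lowest Ntf3 library of LPS 6 h cortex 29.8%, and the lowest Ntrk2 library of LPS 6 h blood 57.0%. Of 40 groups of 4 libraries tested, these 3 passed Dixon's limit, which chance passes in about 1 of 20.

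The LPS difference of several genes differed between tissues by the interaction test of limma, with values in percentage points. For Bdnf, blood exceeded hippocampus by 2.55, 2.76 and 2.85 and cortex by 2.80, 3.42 and 3.11 at 6, 12 and 24 h. For Ntrk2 the values were 13.9, 13.1 and 13.6 against hippocampus and 11.6, 13.2 and 11.7 against cortex. For Ngfr they were 2.20, 1.65 and 1.74 against hippocampus and 1.74, 1.66 and 1.31 against cortex. For Ntf3 they were 1.63 at 6 h and 1.86 at 24 h against hippocampus and 1.57 at 12 h against cortex. All of these rest on the saline blood libraries, and the part of those libraries in them was not tested.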

How the results depend on the processing

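Centring each library on its mean changed the most results. It put 2 genes past the threshold in hippocampus at 6 h and 1 (Ntrk2) between saline hippocampus and cortex, where none passed before. For the interactions of blood minus cortex at 12 h and of blood minus hippocampus at 6 and 24 h it gave 2 calls in place of 4: Ntrk2, called before as well, and Ntrk3, not called before and now negative. It turned the LPS difference of Ntrk3 to -1.71 and -1.17 points in blood at 12 and 24 h and to 1.13 in hippocampus at 6 h. In LPS blood minus LPS hippocampus at 6, 12 and 24 h it gave -3.29, -2.99 and -2.61 for Ntf3, -1.79, -1.52 and -1.40 for Ntrk3, and -1.88, -2.16 and -1.89 for Ngfr. In LPS blood minus LPS cortex it gave -2.90 for Ntf3 at 12 h, -0.354, -0.862 and -0.278 for Ntrk3, and -1.31, -2.12 and -1.64 for Ngfr. Interactions against hippocampus turned to -0.404 for Bdnf at 6 h, -1.32 and -0.644 for Ntf3 at 6 and 24 h, -2.67, -2.40 and -2.28 for Ntrk3, and -0.750, -1.02 and -0.760 for Ngfr. Against cortex they turned to -1.03 for Ntf3 and -2.42 for Ntrk3 at 12 h, and to -0.134, -0.939 and -0.458 for Ngfr. Centring subtracts equal points from all genes, and the cause of each shift was not tested.

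With only genes of 5 to 95% tested, 1 gene passed in hippocampus at 6 h, and with a minimum of 10 points 9 tiles were called in blood at 6 h in place of 14. Leaving out 1 library gave 0 to 1 genes and 0 to 2 cytosines in hippocampus at 12 h, and 3 to 5 genes in LPS blood minus LPS cortex at 6 h. Of 330 gene differences recomputed without 1 library, 328 kept direction and side of the threshold, as did 501 of 503 for tiles, 187 of 199 for cytosines and 1270 of 1315 in the fit of all groups. Read depth is unknown, so no limit from it could be set. For the counts of calls under the alternatives of this section, the replicate block below included, the matching share of all genes, tiles or cytosines is not given here. How far those counts depart from that background was not tested.

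With the replicate number as a block, 3, 4 and 3 genes, 13, 13 and 13 tiles and 67, 57 and 74 cytosines were called in blood at 6, 12 and 24 h, and 0 in brain. In no comparison did every same-numbered pair of a saline and an LPS library correlate above 0.1. Only in blood at 12 h did each library correlate best with its own number (r = 0.0606 to 0.0892). With so few libraries these correlations cannot exclude pairing, and they do not bear on tissues taken from the same animal.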
